A study of Mus musculus with 16 samples.

Results

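The genes described here are 10 genes of heart muscle that were read in homogenates of mouse lung: the myosin heavy chains Myh6, Myh7 and Myh7b, the atrial myosin light chain Myl7, the thin filament genes Tnnt2, Tnni3 and Actc1, the calcium channel Ryr2, the hormone Nppa and the transcription factor Tbx20. They were taken by gene symbol from the platform annotation of the array, which gives them 22 of 62976 features, and they are 10 of 20166 genes tested. The list was selected on the log2 intensities of these same 16 arrays, read by group in an earlier pass, so levels and differences of the 10 genes are given as a description, with their spread and without p-values, and nothing is read from how many of them pass a threshold. All 10 genes, and all 22 of their features, passed the filter on dim features, which asks for a value above the 25th percentile of the array in at least 4 of 16 arrays.

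Whole-lung RNA of pups at postnatal day 3 was hybridised to one-colour Agilent arrays, 1 array per sample, in 4 groups of 4. Fgf10+/- pups, heterozygous for a loss of Fgf10, a growth factor of lung mesenchyme, were kept in 85% oxygen from day 0 to day 3 (Fgf10+/- hyperoxia) or in normal air (Fgf10+/- normoxia). Wild-type pups were kept in 85% oxygen over the same days (wild type hyperoxia) or in normal air (wild type normoxia). The labels give neither the allele, the strain, the sex nor the litter of a pup, so a p-value reflects how these arrays differ among themselves and nothing wider. Fgf10 was at 7.64 ± 0.26 and 8.28 ± 0.32 log2 intensity in Fgf10+/- hyperoxia and normoxia, and at 7.85 ± 0.18 and 7.80 ± 0.39 in wild type hyperoxia and normoxia (SD, n = 4 each). The genotypes did not differ in it by limma (adjusted p = 0.835 in hyperoxia and 0.334 in normoxia), and the sources used here do not say whether its probe lies in the part that is lost. The lung gene Sftpc was at the top of the scale, 15.97 to 15.99, on all 16 arrays.

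Heart muscle genes can belong to a lung. In mice, sleeves of atrial-type cardiac muscle run from the left atrium along the pulmonary veins into the lung, and their cells use the same sarcomere as the heart: myosin heavy chains bound to light chains pull on actin, and the troponin complex switches the pull on when calcium leaves the sarcoplasmic reticulum through the ryanodine receptor. In rodents the ventricle changes from the slow heavy chain of Myh7 to the fast one of Myh6 around birth, under thyroid hormone. A lung can also take atrium, skeletal muscle, cartilage or fat with it at dissection. In a homogenate, fewer cells of a type and less RNA per cell cannot be told apart.

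The promoters of 4 of the 10 genes are shown because the results turn on these genes: Nppa on 1 array, Myl7 and Myh7 for opposite responses, and Actc1 as a companion of Myl7. Each runs 5′ to 3′ from 250 bases before to 50 bases after the RefSeq start on build GRCm38.p6, and of the 2 windows of Myh7 the upstream one is given. Capitals mark matches to motifs known from muscle promoters, searched on both strands: the SRF CArG box, the MEF2 site, a GATA site (AGATAA), the M-CAT element (CATTCC) and the TATA box (TATAAA). The matches in the printed windows do not overlap.
Nppa promoter, chr4:148000472-148000771 (plus strand): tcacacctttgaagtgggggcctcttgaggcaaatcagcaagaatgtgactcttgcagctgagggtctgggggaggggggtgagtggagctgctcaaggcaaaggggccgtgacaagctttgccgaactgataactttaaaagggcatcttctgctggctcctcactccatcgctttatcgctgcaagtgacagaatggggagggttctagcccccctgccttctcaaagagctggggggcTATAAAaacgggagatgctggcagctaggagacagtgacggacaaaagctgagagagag
Myl7 promoter, chr11:5898733-5899032 (minus strand): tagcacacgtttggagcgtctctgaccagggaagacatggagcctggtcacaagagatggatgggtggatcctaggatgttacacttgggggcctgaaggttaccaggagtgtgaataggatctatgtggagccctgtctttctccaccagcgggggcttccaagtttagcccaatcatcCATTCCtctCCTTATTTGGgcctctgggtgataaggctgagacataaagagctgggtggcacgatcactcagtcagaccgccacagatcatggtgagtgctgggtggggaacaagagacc
Myh7 promoter, chr14:54994577-54994876 (minus strand): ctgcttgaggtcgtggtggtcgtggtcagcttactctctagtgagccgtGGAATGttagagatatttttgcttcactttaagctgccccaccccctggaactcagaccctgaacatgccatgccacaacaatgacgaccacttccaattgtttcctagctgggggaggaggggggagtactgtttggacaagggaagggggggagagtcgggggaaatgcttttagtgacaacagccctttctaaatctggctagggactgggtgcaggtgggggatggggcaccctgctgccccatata
Actc1 promoter, chr2:114052826-114053125 (minus strand): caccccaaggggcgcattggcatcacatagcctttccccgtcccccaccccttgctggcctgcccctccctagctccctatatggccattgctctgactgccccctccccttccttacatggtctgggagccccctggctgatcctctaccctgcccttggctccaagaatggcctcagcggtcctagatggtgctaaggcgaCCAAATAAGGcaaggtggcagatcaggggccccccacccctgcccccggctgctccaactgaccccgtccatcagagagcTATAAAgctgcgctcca

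A CArG box, the site of serum response factor, was found in the windows of Myl7 (61 to 52 bases before the start) and Actc1 (47 to 38 bases before it). These are 2 of the 10 genes, while 1.63% of 32851 mouse promoter windows hold one. The M-CAT element was found for 4 of the 10 genes (Myh6, Myh7, Tnnt2 and Myl7) against 14.7% of all windows, the GATA site for 2 (Myh7b and Tnnt2) against 11.2%, and the TATA box for 3 (Myh6, Actc1 and Nppa) against 13.6%. The MEF2 site was found for 0 of the 10 genes and in 0.557% of all windows. A match is a string of letters in a window, and nothing on binding was measured.

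Each of the 3 myosin heavy chain genes also contains a microRNA of the heart, shown because the members of this family differ in the level of their hosts below. The array names no feature for them, so their levels were not measured. Sequences are RefSeq's on GRCm38.p6, 5′ to 3′, with the seed (bases 2 to 8) in capitals.
mmu-miR-208a-3p, in Myh6, chr14:54949072-54949093 (minus strand): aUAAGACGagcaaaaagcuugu
mmu-miR-208b-3p, in Myh7, chr14:54975710-54975731 (minus strand): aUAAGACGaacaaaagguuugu
mmu-miR-499-5p, in Myh7b, chr2:155622893-155622913 (plus strand): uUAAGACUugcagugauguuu
The microRNAs of Myh6 and Myh7 share all 7 seed bases, and that of Myh7b shares 6 of 7 with them.

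A pair of arrays stood apart in sets of genes that include muscle genes, and some results are given with and without them. On replicate 4 of Fgf10+/- hyperoxia, Nppa lay 4.70 above the next highest array on the log2 scale, second to Vmn1r14 at 5.24. On this array 13 genes lay at least 2 above every other array, among them Trim55, a ring finger protein of heart and skeletal muscle (6.90, and at most 4.8 elsewhere), and also Nadk (13.66 and 9.39) and Ildr1 (10.72 and 6.90), which are not muscle genes. Nadk lay at least 1 above every other array on 1 of its 2 features, and Nppa on 10 of 10. Replicate 1 of the same group had nearly as many genes at least 2 above every other array, 12. On replicate 4 of wild type normoxia, 34 genes lay that far above every other array, against 0 to 13 on the other 15 arrays. Many of them were cartilage or skeletal muscle genes: Col2a1, the collagen of cartilage, was at 14.23 there and at most at 6.04 elsewhere, and Acta1, the skeletal muscle actin, at 11.26 and at most at 6.93. Others were not, such as Tcf7l1, a transcription factor of Wnt signalling (12.96 and 7.82), and Ucp1, the uncoupling protein of brown fat (7.5 and 4.18). Vmn1r14, Trim55, Nadk, Ildr1, Col2a1, Tcf7l1 and Ucp1 were named after their values were seen.

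Of the 10 cardiac genes, 6 were bright: Myh6, Myh7, Tnnt2, Tnni3, Actc1 and Myl7 lay above 6.98, the 75th percentile of an array, on all 16 arrays. Myh7b, Nppa, Tbx20 and Ryr2 lay near the array median of 4.5. The mean of the 6 bright genes was 10.72 ± 0.31 log2 intensity in Fgf10+/- hyperoxia and 10.25 ± 0.26 in Fgf10+/- normoxia, and 10.82 ± 0.12 in wild type hyperoxia and 11.14 ± 0.22 in wild type normoxia (SD, n = 4 each). It was lowest on 3 arrays of Fgf10+/- normoxia (10.01 to 10.29) and highest on 3 arrays of wild type normoxia (11.17 to 11.34).

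**Figure D1:**
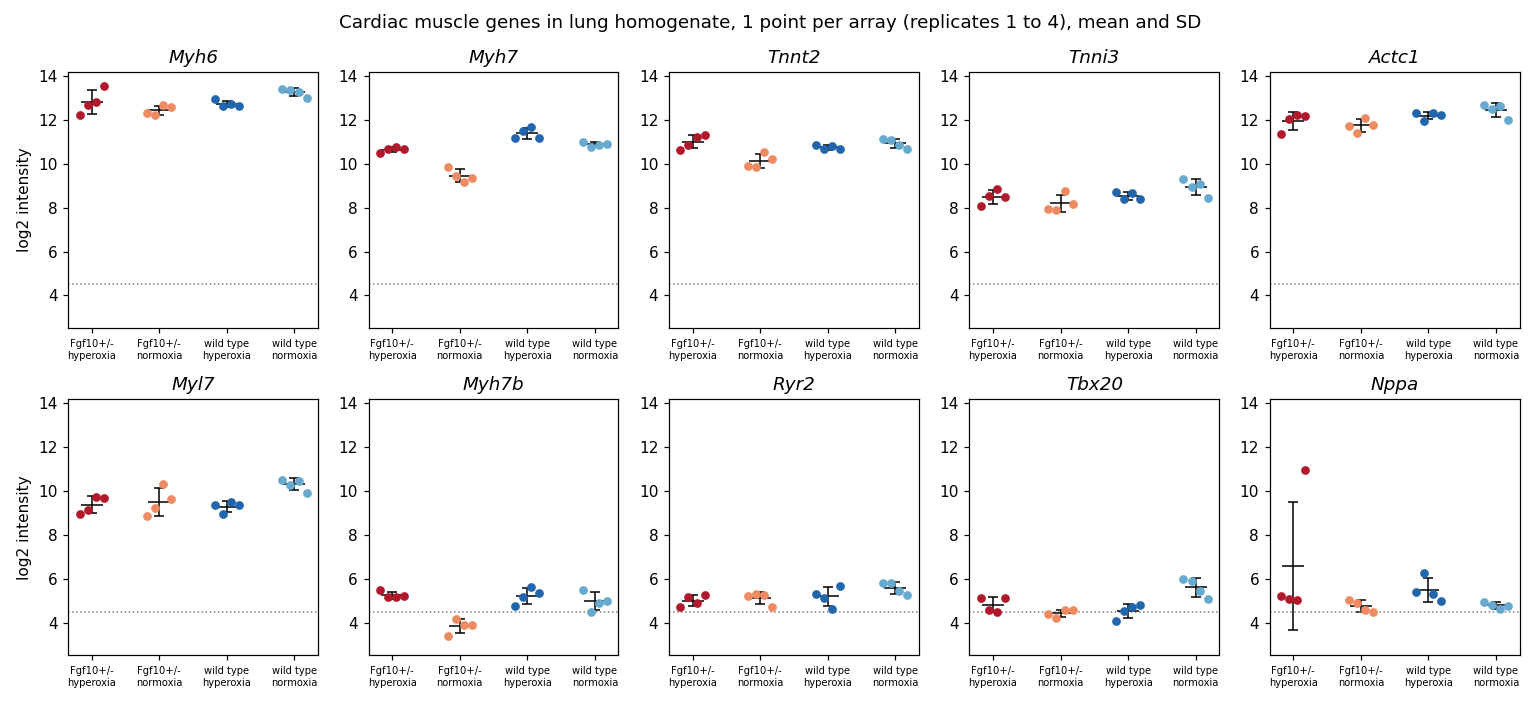
Log2 intensity of the 10 cardiac genes, 1 panel per gene, with 1 point per array (replicates 1 to 4 from left to right within a group) and the mean with SD of the 4 arrays. The dotted line is the array median, 4.5. The 6 panels from Myh6 to Myl7 lie far above it on all 16 arrays, and Nppa leaves it on 1 array, at 10.96.

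The heavy chains did not move as one. Myh6, the fast heavy chain of the atrium and the adult rodent ventricle, was at 12.23, 12.69, 12.81 and 13.57 in Fgf10+/- hyperoxia (replicates 1 to 4, as for all genes) and at 12.32, 12.22, 12.67 and 12.58 in Fgf10+/- normoxia. It was at 12.94, 12.64, 12.73 and 12.63 in wild type hyperoxia and at 13.42, 13.37, 13.28 and 13.00 in wild type normoxia. Every wild type normoxia array was above every array of wild type hyperoxia and of Fgf10+/- normoxia, while the Fgf10+/- groups overlapped. Hyperoxia minus normoxia was 0.38 in Fgf10+/- and -0.53 in wild type (SE 0.22 each), and Fgf10+/- minus wild type was 0.09 in hyperoxia and -0.82 in normoxia. Without both arrays that stand apart these values were 0.13, -0.62, -0.16 and -0.91. A dimmer Myh6 feature averaged 5.48 in Fgf10+/- hyperoxia and 4.84 in Fgf10+/- normoxia, and 5.08 in wild type hyperoxia and 5.49 in wild type normoxia.

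Myh7, the slow heavy chain of the fetal ventricle and of slow skeletal fibres, was at 10.49, 10.66, 10.77 and 10.66 in Fgf10+/- hyperoxia and at 9.87, 9.46, 9.18 and 9.35 in Fgf10+/- normoxia. It was at 11.17, 11.50, 11.69 and 11.19 in wild type hyperoxia and at 11.02, 10.79, 10.87 and 10.91 in wild type normoxia. No pair of groups overlapped: wild type hyperoxia was highest, then wild type normoxia, then Fgf10+/- hyperoxia, and Fgf10+/- normoxia was lowest. The difference of hyperoxia from normoxia was 1.18 in Fgf10+/- and 0.49 in wild type, and that of Fgf10+/- from wild type was -0.74 in hyperoxia and -1.43 in normoxia (SE 0.15 each). Without both arrays that stand apart the last of these stayed at -1.43. Myh7 has 1 feature, and whether its probe also binds other myosin transcripts was not tested.

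Myh7b, another heavy chain of heart and slow muscle, was dim, at 5.47, 5.16, 5.15 and 5.20 in Fgf10+/- hyperoxia against 3.40, 4.15, 3.87 and 3.91 in Fgf10+/- normoxia. It was at 4.77, 5.18, 5.64 and 5.33 in wild type hyperoxia and at 5.51, 4.5, 4.90 and 5.0 in wild type normoxia. The Fgf10+/- normoxia arrays lay below all 12 others. Hyperoxia minus normoxia was 1.41 in Fgf10+/- and 0.25 in wild type, and Fgf10+/- minus wild type was 0.01 in hyperoxia and -1.15 in normoxia (SE 0.22 each).

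Myl7, the regulatory light chain of atrial muscle and a marker of the pulmonary vein sleeve, was at 8.97, 9.16, 9.73 and 9.69 in Fgf10+/- hyperoxia and at 8.86, 9.23, 10.32 and 9.63 in Fgf10+/- normoxia. It was at 9.36, 8.94, 9.49 and 9.38 in wild type hyperoxia and at 10.53, 10.30, 10.47 and 9.93 in wild type normoxia. The wild type groups did not overlap, with hyperoxia lower, whereas the Fgf10+/- groups covered much the same range. Hyperoxia minus normoxia was -0.13 in Fgf10+/- and -1.01 in wild type, and Fgf10+/- minus wild type was 0.09 in hyperoxia and -0.80 in normoxia (SE 0.27 each).

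Among the thin filament genes Tnnt2 differed most. Tnnt2, cardiac troponin T, which ties the troponin complex to tropomyosin, was at 10.65, 10.87, 11.21 and 11.30 in Fgf10+/- hyperoxia and at 9.90, 9.85, 10.55 and 10.24 in Fgf10+/- normoxia. It was at 10.85, 10.67, 10.81 and 10.67 in wild type hyperoxia and at 11.13, 11.09, 10.88 and 10.69 in wild type normoxia. Fgf10+/- normoxia lay below the other 12 arrays, and the wild type groups overlapped. Hyperoxia minus normoxia was 0.87 in Fgf10+/- and -0.20 in wild type, and Fgf10+/- minus wild type was 0.26 in hyperoxia and -0.81 in normoxia (SE 0.17 each). Without both arrays that stand apart these values were 0.77, -0.28, 0.16 and -0.9.

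Tnni3, cardiac troponin I, the inhibitory subunit that replaces the slow skeletal form after birth, averaged 8.49 ± 0.31 in Fgf10+/- hyperoxia and 8.20 ± 0.39 in Fgf10+/- normoxia. It averaged 8.55 ± 0.18 in wild type hyperoxia and 8.94 ± 0.35 in wild type normoxia, and the groups overlapped in each comparison. Actc1, the cardiac actin, averaged 11.96 ± 0.40 and 11.76 ± 0.29 in Fgf10+/- hyperoxia and normoxia, and 12.20 ± 0.17 and 12.45 ± 0.32 in wild type hyperoxia and normoxia. Its groups also overlapped in each comparison. The largest difference of either gene was that of Fgf10+/- from wild type in normoxia, -0.75 for Tnni3 (SE 0.22) and -0.69 for Actc1 (SE 0.21).

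Ryr2, the calcium release channel of heart muscle, averaged 4.99 ± 0.24 and 5.12 ± 0.28 in Fgf10+/- hyperoxia and normoxia, and 5.20 ± 0.43 and 5.58 ± 0.26 in wild type hyperoxia and normoxia, with overlap in each comparison. Tbx20, a transcription factor of the early heart that cardiac muscle keeps, was at 5.11, 4.58, 4.49 and 5.11 in Fgf10+/- hyperoxia and at 4.39, 4.22, 4.56 and 4.56 in Fgf10+/- normoxia. It was at 4.08, 4.53, 4.71 and 4.8 in wild type hyperoxia and at 6.01, 5.91, 5.43 and 5.08 in wild type normoxia. Wild type normoxia was above the wild type hyperoxia and the Fgf10+/- normoxia arrays. Hyperoxia minus normoxia was 0.39 in Fgf10+/- and -1.08 in wild type (SE 0.22 each), on the highest of 3 features. The other 2 Tbx20 features did not show this: with the mean of the 3 features, the wild type difference was -0.05.

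Nppa, the atrial natriuretic peptide that stretched atrial muscle secretes, has 10 features. On replicate 4 of Fgf10+/- hyperoxia all 10 features were bright, at 10.32 to 10.96, with a mean of 10.66. On replicates 1 to 3 of that group the mean of the 10 features was 5.10, 5.08 and 5.02. The mean was at 4.27, 4.36, 4.34 and 4.33 in Fgf10+/- normoxia, at 4.67, 5.81, 4.91 and 4.91 in wild type hyperoxia, and at 4.57, 4.45, 4.35 and 4.09 in wild type normoxia. Each hyperoxia array was above every normoxia array of both genotypes. Hyperoxia minus normoxia was 2.14 in Fgf10+/- with all arrays and 0.74 without the bright one, and 0.71 in wild type. The genotypes in hyperoxia differed by 1.39 with all arrays and by -0.01 without it.

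**Figure D2:**
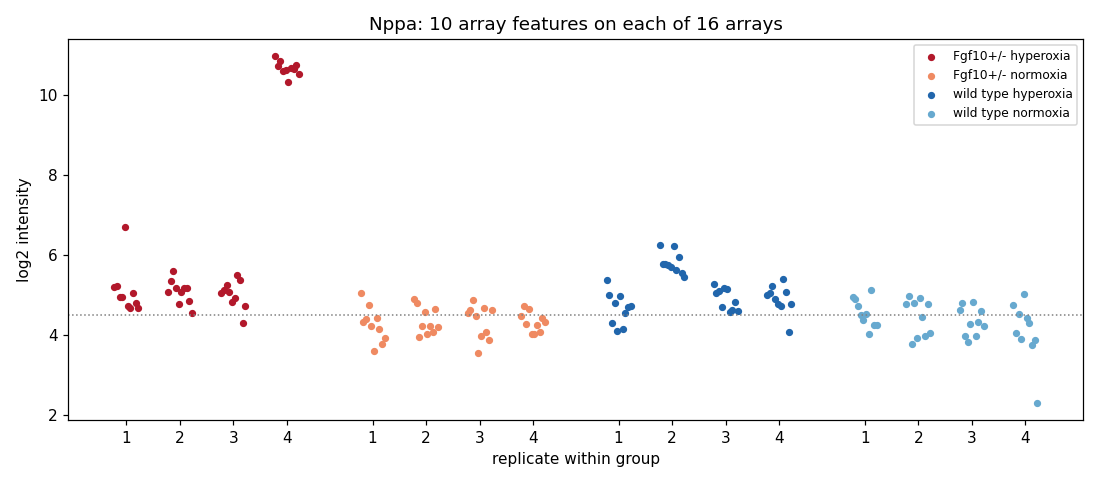
Log2 intensity of the 10 Nppa features on each of the 16 arrays, by group and replicate, with the array median (4.5) dotted. All 10 features of Fgf10+/- hyperoxia replicate 4 lie between 10.32 and 10.96, and no feature on the other 15 arrays exceeds 6.71.

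Some other cardiac genes were also high on that array, by less. Myh6 was highest of the 16 arrays there, at 13.57, and Tnnt2 as well, at 11.30. As deviations from group means Myh6 and Nppa had r = 0.72 over the 16 arrays. Nppa was at 10.96 on that array against a group mean of 6.57, so this 1 array weighs heavily in that r. It is not separate evidence that the genes vary together. Myl7 at 9.69 and Actc1 at 12.18 lay within the range of the group's other 3 arrays, as did Myl4 at 12.87 and Bmp10, a growth factor of the atrium named after its values were seen, at 3.40. Sln was at 9.65 there and at 8.38, 7.92 and 8.64 on the other 3. Of the 89 other heart muscle genes tested, 7 were highest of the 16 arrays there, among them Myom2 (9.33) and Tbx5 (11.17), against 20 on replicate 4 of wild type normoxia and 0 to 9 on the other 14 arrays. The cause of the Nppa value was not tested.

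The comparison that asks what 85% oxygen does in Fgf10+/- lungs showed Myh7, Myh7b and Tnnt2 higher. By limma, 3 of the 10 cardiac genes passed an adjusted p of 0.05, all of them higher, and 7 did not. Over all genes tested 23.8% passed, 13% higher and 10.7% lower. The groups did not overlap for 4 cardiac genes, all higher, against 24.9% of all genes (13.8% higher and 11.1% lower). For Nppa, among the 4, the lowest hyperoxia and the highest normoxia value of its brightest feature both rounded to 5.05. The median difference of the 10 genes was 0.38, against 0.03 over all genes.

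The same comparison in wild type lungs had Myh7 higher and Myl7 and Tbx20 lower. These were 3 of the 10 genes past the threshold, 1 higher and 2 lower, against 19.1% of all genes, 10.3% higher and 8.75% lower. The groups did not overlap for 5 of the 10 genes, 2 higher and 3 lower, against 24.8% of all genes (13.6% higher and 11.2% lower). The median difference was -0.31, against 0.03 over all genes. With 1 array left out, 1 (without wild type hyperoxia replicate 2) to 5 (without Fgf10+/- hyperoxia replicate 4) of the 10 genes passed, and Myh7 did so in 11 of 16 fits.

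Between genotypes in hyperoxia, the 8 genes other than Myh7 and Nppa differed by -0.24 (Actc1) to 0.29 (Tbx20), and Nppa by 1.09 on its brightest feature and by -0.38 without both arrays that stand apart. Myh7 was lower in Fgf10+/- and was the 1 gene past the threshold, against 0.412% of all genes (0.293% higher and 0.119% lower). It was also the 1 gene whose groups did not overlap, against 5.99% of all genes (3.13% higher and 2.85% lower). With 1 array left out, 0 to 1 of the 10 genes passed, and Myh7 did so in 2 of 16 fits. The median difference of the 10 genes was 0.05.

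Between genotypes in normoxia, all 10 differences were negative, from -1.43 for Myh7 to -0.04 for Nppa, with a median of -0.80 against 0 over all genes. Myh7, Myh7b, Tnnt2 and Tbx20 passed the threshold, all lower in Fgf10+/-, against 0.719% of all genes (0.114% higher and 0.605% lower). The groups did not overlap for 5 of the 10 genes, all lower, against 7.53% of all genes (3.02% higher and 4.51% lower). With 1 array left out, 1 to 5 of the 10 genes passed, and with only the normoxia groups in the fit, 0 of the 10 genes and 0 of all genes passed. Tnnt2 passed in 4, Tbx20 in 10 and Myh7b in 11 of the 16 leave-one-out fits.

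**Figure D3:**
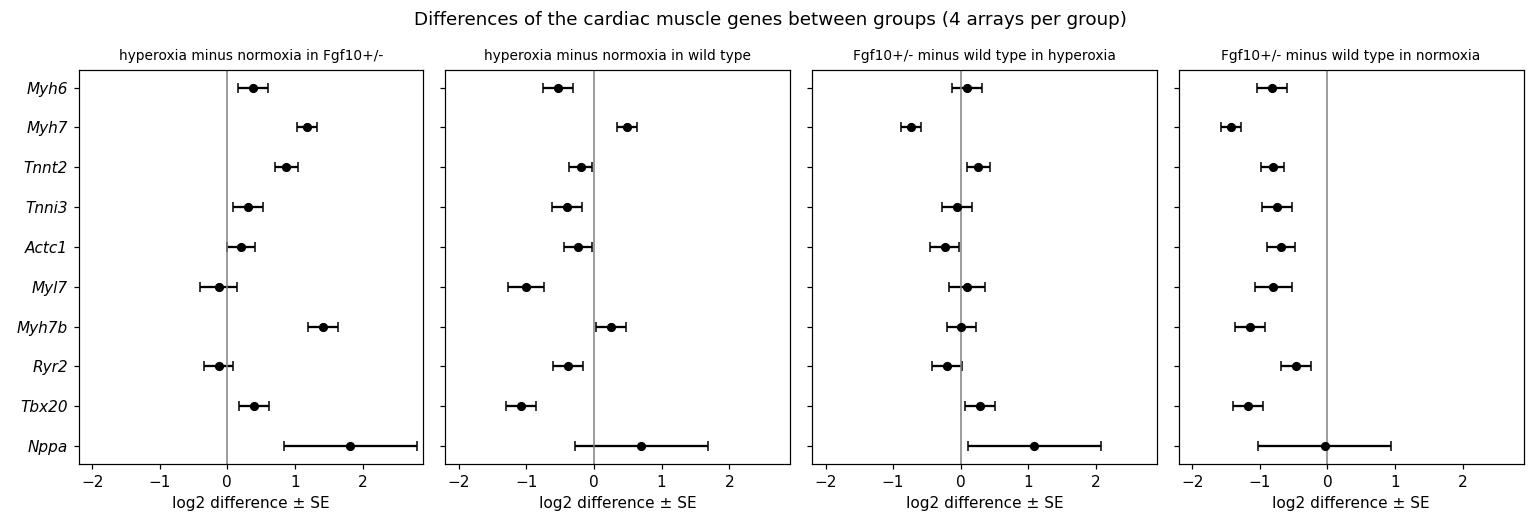
Differences of the 10 cardiac genes on the log2 scale with their SE in 4 comparisons of 4 against 4 arrays. In the right panel, Fgf10+/- minus wild type in normoxia, all 10 points lie at or below -0.04, and in the left panel Myh7, Myh7b and Tnnt2 lie at 1.18, 1.41 and 0.87. The wide bars of Nppa come with replicate 4 of Fgf10+/- hyperoxia.

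The response to oxygen in Fgf10+/- minus that in wild type was positive for all 10 genes, from 0.25 for Ryr2 to 1.46 for Tbx20, with a median of 0.90 against 0.01 over all genes. Without both arrays that stand apart Nppa was at -0.33 and the other 9 genes remained positive. This difference of responses passed the threshold for 0 of the 10 genes and for 0 of 20166 genes (0%), while 1334 genes had an unadjusted p under 0.05. Each comparison shares arrays with others, so the signs of the 10 genes are not separate pieces of evidence.

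The genes also changed relative to each other on the same array. Myh7 minus Myh6 averaged -2.18 ± 0.51 in Fgf10+/- hyperoxia and -2.98 ± 0.47 in Fgf10+/- normoxia, and -1.35 ± 0.33 in wild type hyperoxia and -2.37 ± 0.21 in wild type normoxia. The groups of wild type did not overlap, and those of Fgf10+/- overlapped through 1 hyperoxia array, replicate 4 at -2.91. Hyperoxia thus shifted Myh7 against Myh6 by 0.80 in Fgf10+/- and by 1.02 in wild type. Myl7 minus Myh6 shifted by -0.50 in Fgf10+/- and by -0.48 in wild type, again without overlap in wild type. Tnnt2 minus Myh6 shifted by 0.50 and 0.34, while the shifts of Tnni3 (-0.08 and 0.14) and Actc1 (-0.17 and 0.29) ran in opposite directions in the genotypes, and the groups overlapped. Such shifts show unequal change of the genes, and not which of them changed.

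**Figure D4:**
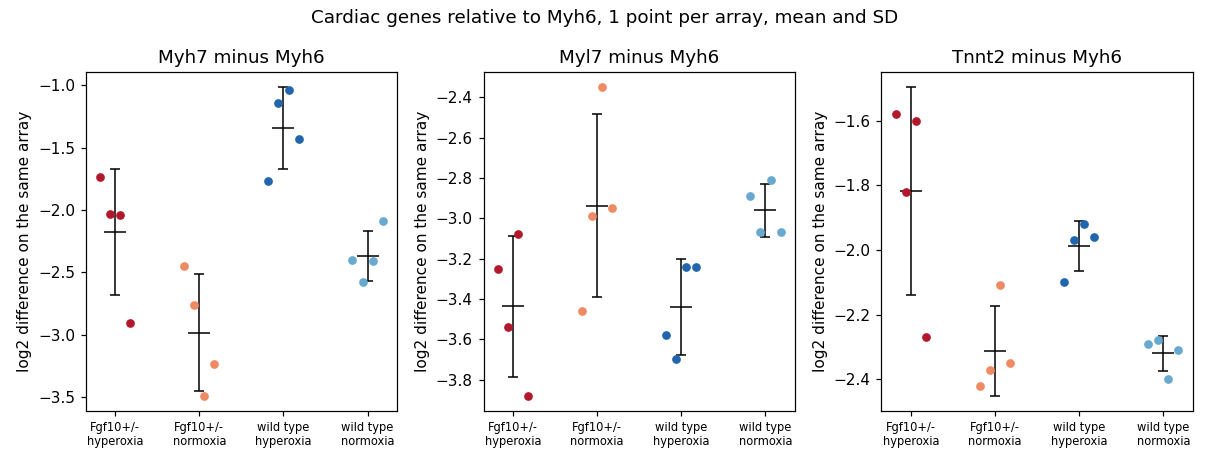
Difference in log2 intensity between Myh7, Myl7 or Tnnt2 and Myh6 on the same array, 1 point per array with the mean and SD of the 4 arrays. In wild type, Myh7 minus Myh6 averages -1.35 in hyperoxia and -2.37 in normoxia without overlap, and Myl7 minus Myh6 averages -3.44 and -2.96. The level of 1 probe is not compared with that of another, only the shift between groups.

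Within groups, 5 of the 6 bright genes varied together and Myh7 did not. Over the 16 arrays, as deviations from the group means, the 10 pairs among Myh6, Tnnt2, Tnni3, Actc1 and Myl7 had Pearson r of 0.56 to 0.89. The 5 pairs of Myh7 with these genes had r of -0.40 to 0.00. The mean of the 5 genes on single arrays was 10.26 to 11.05 in Fgf10+/- hyperoxia, 10.12 to 10.88 in Fgf10+/- normoxia, 10.52 to 10.84 in wild type hyperoxia and 10.81 to 11.41 in wild type normoxia. These correlations describe 16 arrays that share their scaling.

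The genes most like Myl7 over the 16 arrays were muscle genes. They were Atp2a2, the calcium pump of the sarcoplasmic reticulum (r = 0.893, rho = 0.832), Tnnt1, slow skeletal troponin T (0.849 and 0.744), Sh3bgr (0.841 and 0.759), Mybpc3, cardiac myosin binding protein C (0.826 and 0.882), and Ldb3, a Z-disc protein (0.823 and 0.850). As deviations from group means their r was 0.627 to 0.797, and without the 2 arrays farthest from the median of Myl7 it was 0.730 to 0.840. Of the bright cardiac genes, Tnni3 ranked 8, Myh6 ranked 36 and Actc1 ranked 46 among 20165 other genes. Tnnt2 was farther down, at rank 1300 (r = 0.473), and Myh7 was at rank 10278 (r = -0.025).

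The genes most like Myh7 were led by genes of lung epithelium. They were Abca3, the lipid transporter of lamellar bodies in type 2 alveolar cells (r = 0.957, rho = 0.909), Sec14l4 (0.950 and 0.885), Cxcl15, the chemokine lungkine of airway and alveolar epithelium (0.941 and 0.871), Elf5, a transcription factor of distal lung epithelium (0.939 and 0.826), and Aifm3 (0.938 and 0.826). Abca3 averaged 12.96 ± 0.16 and 12.44 ± 0.15 in Fgf10+/- hyperoxia and normoxia, and 13.47 ± 0.05 and 13.17 ± 0.07 in wild type hyperoxia and normoxia, the same order of groups as Myh7. As deviations from group means the r of the 5 genes with Myh7 was 0.256 to 0.544, so much of the likeness lay between the groups. Of the bright cardiac genes, Tnnt2 came closest to Myh7, at rank 1746 of 20165 (r = 0.619), and Myl7 was at rank 10944 (r = -0.025). The dim Myh7b was closer to Myh7 than Tnnt2 (r = 0.813), and as deviations from group means its r was 0.09.

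Ager, a gene of type 1 alveolar cells, was most like the mean of the 10 cardiac genes (r = 0.884, rho = 0.844). It was followed by Myom2, an M-band protein (0.868 and 0.838), Tnnc1, cardiac troponin C (0.845 and 0.800), Wdr91 (0.839 and 0.853) and the olfactory receptor Olfr1377 (0.836 and 0.765). Their r as deviations from group means was 0.568 to 0.726, and all 15 of these likenesses were picked as the highest among all genes, so no p is given.

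Other genes of heart muscle, 92 of them from 6 lists of which 89 were tested, were read in the same way to set the 10 genes in their company. In Fgf10+/- lungs 26 of 89 passed the threshold with oxygen, 18 higher and 8 lower (29.2%, against 23.8% of all genes, with a median of 0.10). In wild type lungs 17 passed it, 6 higher and 11 lower (19.1%, the share of all genes, with a median of -0.10). The lists hold genes that lung cells express too, such as Hopx, a gene of type 1 alveolar cells, and Gata6.

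Cox6a2, Fabp3 and Myoz2 rose with oxygen in both genotypes. Of the 11 genes of oxidative muscle metabolism, 5 passed as higher in Fgf10+/- lungs (45.5%, against 23.8% of all genes called) and 2 in wild type lungs (18.2%, against 19.1%). None of the 11 passed as lower, and 8 of the 11 differences were positive in each genotype. Cox6a2, the muscle form of a cytochrome oxidase subunit, was at 10.53, 10.97, 11.23 and 10.89 in Fgf10+/- hyperoxia against 8.50, 8.53, 9.29 and 8.82 in Fgf10+/- normoxia, and at 11.15, 10.83, 10.84 and 10.76 in wild type hyperoxia against 9.59, 9.22, 9.69 and 10.14 in wild type normoxia. It rose by 2.12 in Fgf10+/- (SE 0.21, limma adjusted p = 1.5e-05) and by 1.24 in wild type (adjusted p = 0.00107). Fabp3, the fatty acid carrier of heart muscle, rose by 1.91 and 1.04 (SE 0.22 each, adjusted p = 4e-05 and 0.0042), and Myoz2, a calcineurin-binding Z-disc protein, by 1.86 and 1.10 (SE 0.21 each, adjusted p = 4e-05 and 0.0025). None of these 6 calls was lost when 1 array was left out. In Fgf10+/- lungs Csrp3, a stretch-related Z-disc protein, and Ankrd1, a stress-related repeat protein of the sarcomere, rose as well, by 1.28 (SE 0.21, adjusted p = 0.000576) and 2.02 (SE 0.45, adjusted p = 0.00455); Ankrd1 was named after its values were seen.

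Sln, Atp2a2 and Myocd fell with oxygen in wild type lungs. Of the 20 tested genes of calcium handling and ion channels 3 passed as lower there and 0 as higher. Of the 15 tested atrial genes 3 passed as lower and 1 as higher, while in Fgf10+/- lungs the counts were 1 lower and 4 higher in both lists. These are 15% and 26.7% of the lists in wild type, against 19.1% of all genes, and 25% and 33.3% in Fgf10+/-, against 23.8%. Sln, sarcolipin, which restrains the calcium pump and is rich in atrium, was at 8.03, 8.66, 8.49 and 8.44 in wild type hyperoxia against 9.96, 9.70, 9.44 and 10.07 in wild type normoxia, and fell by 1.39 (SE 0.35, limma adjusted p = 0.0122). Sln was named after its values were seen. Atp2a2 fell by 0.72 (SE 0.18, adjusted p = 0.0104), but missed the threshold with the mean of its features. Myocd, myocardin, a partner of serum response factor, fell by 0.94 (SE 0.15, adjusted p = 0.000594). In Fgf10+/- lungs the differences of Sln and Atp2a2 were -0.28 (adjusted p = 0.640) and -0.34 (adjusted p = 0.203), while Myocd fell by 0.49 (adjusted p = 0.0272) but not past the threshold in 5 of 16 leave-one-out fits. The difference of responses did not pass for Sln (1.11, SE 0.49, adjusted p = 0.741) or Atp2a2 (0.39, SE 0.25, adjusted p = 0.838).

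Between genotypes 2 of the 89 genes passed by limma in normoxia (2.25%, against 0.719% of all genes) and 0 in hyperoxia (against 0.412%), where 9 had an unadjusted p under 0.05. Actn2, alpha-actinin of the Z-disc, fell by 1.09 in Fgf10+/- normoxia (SE 0.19, limma adjusted p = 0.0195). It missed the threshold in 5 of 16 leave-one-out fits, with the mean of its features and with only the groups compared. Actn2 was at 6.17, 6.13, 6.65 and 6.19 in Fgf10+/- normoxia and at 7.33, 7.35, 7.35 and 7.49 in wild type normoxia. Lbh, which the ventricle expresses, rose by 0.73 (SE 0.15, adjusted p = 0.0479), and it missed the threshold in 15 of 16 leave-one-out fits. The groups in normoxia did not overlap for 16 of the 89 genes, 14 lower and 2 higher, against 7.53% of all genes (4.51% lower and 3.02% higher). The median of the 89 genes was -0.23 in normoxia and 0.01 in hyperoxia.

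Markers of neighbouring tissues were read on the same arrays. Of the 15 tested atrial genes, 8 lay above the 75th percentile of an array on all 16 arrays, among them Myl4 at 11.86 to 13.23, Sln at 7.92 to 10.07 and Tbx5, a transcription factor that lung mesenchyme also uses, at 10.28 to 11.17. A further 5 averaged under 5, Bmp10, Kcna5, Kcnj3, Dhrs9 and Nkx2-5, and ranged from 2.48 (Kcnj3) to 5.50 (Nkx2-5) over the arrays. Of the 12 tested ventricular genes, 3 lay above the 75th percentile on all arrays, Lbh at 9.19 to 10.34, Fhl2 at 8.92 to 10.20 and Mpped2 at 7.47 to 8.53, and 6 averaged under 5. Myl2, the ventricular regulatory light chain, was at 3.91 to 6.08 on 15 arrays and at 7.98 on replicate 4 of wild type normoxia. Irx4, Nppb and Gpr22, of those 6, were at 3.19 to 4.64, at 3.04 to 4.17 and at 2.67 to 5.43, whereas Myl3, which slow skeletal muscle also uses, was at 6.96 to 10.23. The dim genes named here, Sln and Myl2 were named after their values were seen.

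Skeletal muscle genes were high on 1 array. The mean of the 31 tested of 32 genes was 4.54 to 4.85 on 15 arrays and 6.81 on replicate 4 of wild type normoxia, and 12 to 18 of the 31 lay above the array median on the 15 arrays against 24 on that one. The summed level of the list on the log2 scale was 10.39 to 10.70 in Fgf10+/- hyperoxia and 10.32 to 10.76 in Fgf10+/- normoxia, and 10.47 to 10.87 in wild type hyperoxia and 11.04 to 14.16 in wild type normoxia. On that replicate 4 the mean of the 5 bright cardiac genes without Myh7 was 10.81, the lowest of its group. In wild type lungs 4 of the 31 skeletal genes passed as lower with oxygen and 0 as higher (12.9% called, against 19.1% of all genes). Tnnt1 fell by 1.27 (SE 0.19, limma adjusted p = 0.000343) and Tnni1, slow troponin I, which fetal heart also uses, by 1.18 (SE 0.23, adjusted p = 0.00275). Atp2a1, the fast calcium pump, fell by 0.90 (SE 0.28, adjusted p = 0.039) and Casq1, a calcium store protein, by 0.86 (SE 0.27, adjusted p = 0.0419). Atp2a1 and Casq1 missed the threshold in 5 and 9 of 16 leave-one-out fits. Among these was the fit without replicate 4 of wild type normoxia, where both genes were highest of the 16 arrays (5.92 and 5.12). They also missed it without both arrays that stand apart. In Fgf10+/- lungs 1 of the 31 passed as lower with oxygen (3.23%, against 23.8% of all genes), Tnnt1, by 0.57 (SE 0.19, limma adjusted p = 0.0392). It missed the threshold in 6 of 16 leave-one-out fits and without both arrays that stand apart.

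The remaining lists differed less between arrays than the skeletal one. The thymus list had means of 4.02 to 4.48, and the list of oesophagus and squamous epithelium 4.81 to 5.39. The epicardium and mesothelium list ranged from 7.43 to 8.93 in Fgf10+/- hyperoxia and from 7.66 to 8.97 in Fgf10+/- normoxia, and from 7.29 to 8.0 in wild type hyperoxia and from 7.87 to 8.32 in wild type normoxia. In Fgf10+/- hyperoxia it was highest on replicate 4, the array with bright Nppa, and the highest array of all was replicate 1 of Fgf10+/- normoxia. The brown fat list was at 5.34 to 5.91 on 15 arrays and at 6.55 on replicate 4 of wild type normoxia. The smooth muscle list was at 9.69 to 10.12. How much pulmonary vein, atrium or other tissue a sample held was not tested by any of these values, and its part in the differences of the cardiac genes was not tested.

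**Figure D5:**
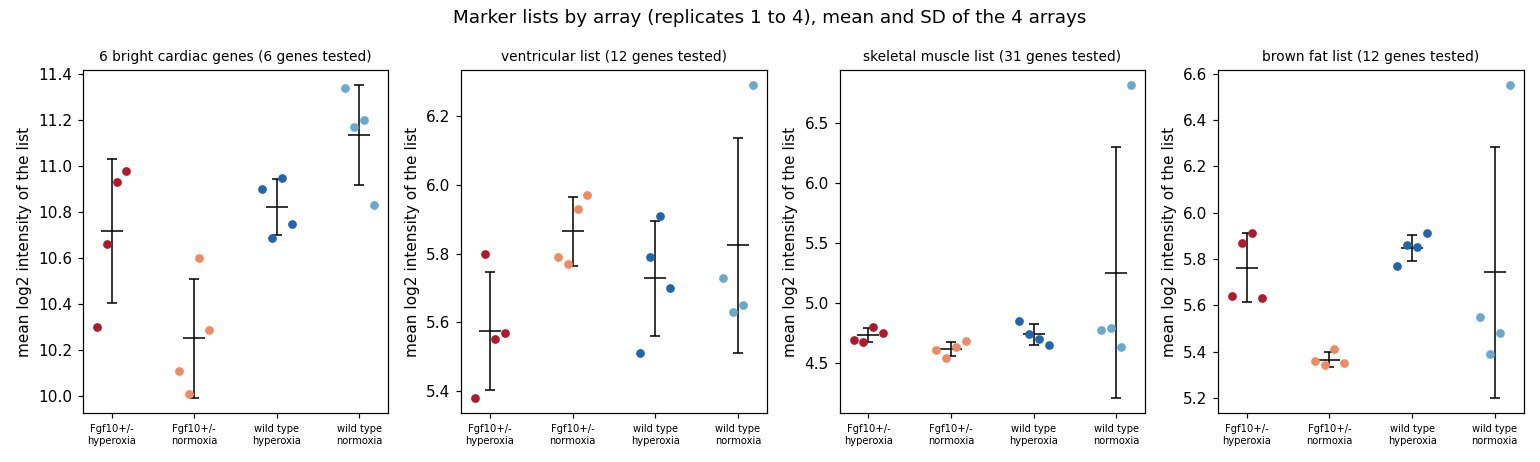
Mean log2 intensity per array of the 6 bright cardiac genes and of the ventricular, skeletal muscle and brown fat lists, 1 point per array with the mean and SD of the 4 arrays. Replicate 4 of wild type normoxia is highest in the skeletal (6.81), brown fat (6.55) and ventricular (6.29) lists and lowest of its group in the bright cardiac genes (10.83).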

How the data were processed

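The authors deposited 1 table of log2 intensities, a value per array feature, of 16 one-colour Agilent arrays of mouse lung RNA, labelled with Cy3 per the labels' protocols. The sources used here state no background correction, normalization, slide, scan batch or litter. The array medians lie between 4.4996 and 4.5003, so the arrays had been put on a common scale before deposit, and the values were used as deposited. Arrays carry no depth, so their number limits the precision.

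Features were named through the platform annotation and brought up to date through the RefSeq table of assembly GRCm38.p6 (29050 features by accession, 2061 by current symbol, 349 by a unique synonym, 5 kept as they were). A total of 31465 features name 1 gene and 31511 name none. Named features with a missing value were left out (12). Features above the 25th percentile of their array in at least 4 of 16 arrays were kept, and the kept feature with the highest mean stands for its gene, which leaves 20166 genes, 5970 of them with several kept features.

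All genes were fitted together with limma 3.58.1 in R 4.3.3, 1 mean per group over 16 arrays, and moderated variances (eBayes: 12 residual and 2.129 prior degrees of freedom). Benjamini-Hochberg adjusted p-values were taken over all genes in each comparison, with calls at 0.05. Tested on simulated data of 20166 genes, 200 of them shifted in hyperoxia against normoxia in Fgf10+/-, the fit recovered 55% of changes of 1 and 95% of changes of 2 on the log2 scale, with 7 false calls. Correlations across arrays were computed with Python 3.11.15 and pandas 2.3.3.

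The 10 genes, the marker lists, the alternatives and the rule for named genes were chosen with earlier results of these data known. The rule takes the 10 genes, the 4 brightest genes of a marker list, up to 4 called genes with the smallest p per comparison of the other heart and the skeletal muscle genes, the 5 genes most like Myl7, Myh7 and the mean of the 10, and Fgf10 and Sftpc. Alternatives were other filters, averaging a gene's features, other scalings, limma's trend and robust options, weights per array, a replicate block, only the groups compared, and each array left out in turn. Leaving out both arrays that stand apart was chosen after seeing the data.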

Additional observations from a re-analysis of the deposited data

Results flagged for a closer look

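Among 68 genes with values in 4 groups of 4 arrays, 26 of 272 groups held an array whose gap to its nearest neighbour took up more of the group's range than Dixon's 95% value allows, and chance gives about 1 in 20. Of the 10 cardiac genes, 3 of 40 groups did. Neither count can be set against chance. The 68 genes include Nadk, Ildr1, Trim55, Tcf7l1 and Ucp1, named after an array was seen to stand apart in them. The 10 cardiac genes were also chosen with their values known. Nppa was at 10.96 on replicate 4 of Fgf10+/- hyperoxia, with its next array at 5.20. Myh7b was at 5.47 on replicate 1 of Fgf10+/- hyperoxia, with its next array at 5.20. Ryr2 was at 4.70 on replicate 4 of Fgf10+/- normoxia, below 5.23 on the next.

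On replicate 4 of wild type normoxia, skeletal muscle and other genes stood apart: Acta1 at 11.26, Myh8 at 10.92, Tnni2 at 11.22, Cox8b, a gene of brown fat and muscle, at 9.98, Actn2 at 7.49, Ucp1 at 7.5, Tcf7l1 at 12.96 and Clu at 11.90. Tpm1 was at 11.31 on replicate 2 of that group and Aifm3 at 7.58 on replicate 1. Sftpc was at 15.98 on replicate 2, against 15.99 on the others, which is the end of the scale. In the other groups, Actn2 was at 6.65 and Casq1 at 2.86 on replicate 3 of Fgf10+/- normoxia, Hopx at 13.05, Nadk at 13.66, Ildr1 at 10.72 and Trim55 at 6.90 on replicate 4 of Fgf10+/- hyperoxia, Mpped2 at 8.02, Kcnj3 at 2.72 and Ucp1 at 3.03 on replicate 2 and Fhl2 at 8.92 on replicate 1 of that group, Kcna5 at 3.52 on replicate 3 of wild type hyperoxia, and Cxcl15 at 12.76 on replicate 4 of wild type hyperoxia. The causes were not tested.

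Nkx2-5, a transcription factor of heart and pulmonary vein muscle, differed between genotypes in opposite directions. Fgf10+/- minus wild type was 0.56 in hyperoxia and -0.80 in normoxia, without overlap of the groups in either. The difference of responses, 1.36 (SE 0.31), did not pass in limma's test over all genes (adjusted p = 0.501). The gene lies near the array median, and it was named after its values were seen.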

How the results depend on the processing

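For all genes, the 10 cardiac genes and the other heart muscle genes, the counts called with oxygen in Fgf10+/- stayed within 1.5 times under all 26 alternatives, and the 10 genes had 3 called under each; so did the counts of all genes and of other heart muscle genes in wild type. When 1 array was left out, counts of the cardiac genes were 1 to 5 in wild type with oxygen (5 without Fgf10+/- hyperoxia replicate 4, 1 without wild type hyperoxia replicate 2), 0 to 1 between genotypes in hyperoxia and 1 to 5 in normoxia. Counts of all genes were 13 to 80 (main 83; 13 without Fgf10+/- hyperoxia replicate 4) and 44 to 292 (main 145; 292 without wild type normoxia replicate 4) between genotypes in hyperoxia and normoxia, and 0 to 1 for the difference of responses. Counts of other heart muscle genes were 0 to 1 and 0 to 5 between genotypes in hyperoxia and normoxia. Counts of skeletal genes were 0 to 3 in Fgf10+/- and 2 to 4 in wild type with oxygen (3 without wild type normoxia replicate 4), and 0 to 1 between genotypes in normoxia.

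Between genotypes in hyperoxia, all genes gave 126 calls with the filter at the 50th percentile, 223 with trend and robust options, 0 with only the groups compared and 14 without both arrays that stand apart. The cardiac count of 1 went to 0 with no filter, the mean of features, quantile normalization again, only the groups compared and both arrays left out, and other heart muscle genes gave 1 with the stricter filter and with array weights. Between genotypes in normoxia, all genes gave 283 with the stricter filter, 94 with the mean of features, 433 with trend and robust options, 306 with array weights, 0 with only the groups compared and 345 without both arrays. The cardiac count there was 2 with the mean of features and 0 with only the groups compared. Other heart muscle genes gave 1 with no filter, 8 with the stricter filter, 0 with the mean of features, 11 with trend and robust options, 5 with array weights, 0 with only the groups compared and 5 without both arrays. Skeletal genes gave 1 with the stricter filter, trend and robust options or array weights in that comparison, and with oxygen in Fgf10+/- 2 with the mean of features, 0 with array weights, 2 with only the groups compared and 2 without both arrays. The causes were not tested, beyond the smaller fits having fewer arrays.

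No called difference changed sign. Without both arrays that stand apart, Nppa was at 0.36 with oxygen in Fgf10+/- (main 1.82), -0.38 between genotypes in hyperoxia (main 1.09) and -0.33 in the difference of responses (main 1.12). Tbx20 moved with the choice of features: with the mean of its 3 features its wild type response was -0.05, its genotype difference in normoxia -0.23 and its difference of responses 0.36. Over 24 pairs of same-numbered arrays, deviations from group means correlated at -0.029 to 0.087. Arrays with different numbers were not compared, so this cannot decide whether the replicate numbers pair the arrays. With replicate number as a block, all genes gave 37 calls between genotypes in hyperoxia, the cardiac genes 0 there, 1 in normoxia and 2 in wild type with oxygen, and skeletal genes 1 between genotypes in normoxia.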
